A study of Homo sapiens with 3 samples.

Results

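The 7 genes described here code for dynein heavy chains, the large motor subunits of the dynein family. They are the 6 ciliary genes DNAH1, DNAH2, DNAH5, DNAH7, DNAH9 and DNAH11, and DYNC1H1, the heavy chain of cytoplasmic dynein. Their members are the target intervals of a capture design that lie fully inside a fixed hg19 window for each gene. The windows held 965 intervals (98004 bases) of the 377858 in the whole design, or 0.255%. Of these, 848 lay in the ciliary genes and 117 in DYNC1H1.

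The study enriched RNA of K562 cells, an established human leukaemia line, for the ends of introns in order to map splicing branchpoints. Its 3 libraries are biological replicates of 1 untreated group, per the labels' protocols, and received ERCC spike-in RNA to 1% in replicates 1 and 2 and 1.08% in replicate 3. The deposited interval list belongs to all 3 libraries and holds no value per library, so the read depth of the libraries was not analysed here and the label K562 could not be checked against marker genes. Each interval carries a score, a whole number between 0 and 125, which no label or header explains.

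A dynein heavy chain walks toward the minus end of a microtubule with a ring of AAA domains, the first of which binds and splits ATP. Cytoplasmic dynein is the general minus-end motor of animal cells and carries vesicles, organelles and chromosomes, whereas axonemal dyneins bend cilia and sperm flagella. DNAH5, DNAH9 and DNAH11 are heavy chains of the outer dynein arms, and DNAH1, DNAH2 and DNAH7 of the inner arms. During splicing the cut 5′ end of an intron is joined to a branchpoint close to its 3′ end, and the design addressed both ends.

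All 7 genes share the ATP-binding loop of the first AAA domain, and its codons are shown because they mark 1 comparable place in each gene. They were found as the first stretch in the longest reading frame that codes for this loop, so their likeness is part of how they were chosen. The sequences are those of the spliced transcripts in GENCODE release 29, 5′ to 3′. Capitals mark the 24 bases of the loop.
DNAH5: gctGGACCTGCAGGCACAGGCAAAACAgaa
DNAH9: gcaGGACCTGCAGGCACAGGCAAGACCgag
DNAH11: gctGGCCCAGCTGGTACCGGGAAAACAgag
DNAH1: gctGGCCCAGCTGGCACAGGCAAAACTgag
DNAH2: aaaGGCCCTGCAGGCACAGGCAAGACCgag
DNAH7: gagGGTCCAGCTGGCACTGGGAAGACTgaa
DYNC1H1: tttGGACCTGCTGGAACTGGGAAAACAgag
The 24 bases were the same in all 7 genes at 16 positions, and each ciliary gene shared from 17 (DNAH2) to 20 (DNAH5 and DNAH11) of them with DYNC1H1. In each ciliary gene the loop lay within 1 exon, such as exon 36 of DNAH5 (179 nt) and exon 29 of DNAH1 (189 nt). In DYNC1H1 an intron interrupted it: the first capital base was the last of exon 27, and the rest lay in exon 28.

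The targets beside the loop exons had scores of 0 or 1 in the ciliary genes and of 3 to 40 in DYNC1H1. Of the 12 targets beside the loop exons of the 6 ciliary genes, 11 scored 0 and 1 scored 1, the latter upstream of exon 35 of DNAH2 (chr17:7681499-7681597). In DYNC1H1 both targets beside exon 28 scored 3 (chr14:102473245-102473344 and chr14:102473447-102473546). On the upstream side of exon 27, which holds the first base of the loop, the target scored 40 (chr14:102472125-102472224), and on its downstream side the target scored 6 (chr14:102472509-102472608).

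Scores were near 0 in the ciliary genes and far higher in DYNC1H1. Every one of the 117 intervals of DYNC1H1 scored above 0, against 89 of the 848 ciliary intervals (10.5%). In the whole list 52.8% of intervals scored above 0, so the ciliary genes lay below that share and DYNC1H1 above it. The mean score per interval was 0.183 ± 0.241 over the ciliary genes (SD between genes, n = 6) and 20.8 in DYNC1H1, with 6.80 in the whole list. Each of the 6 ciliary means lay below that of DYNC1H1. These are values of a fixed list with no replicate error, and with 6 genes against 1 an exact permutation of the genes could not give a p-value below 0.143, so no test was made.

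**Figure D1:**
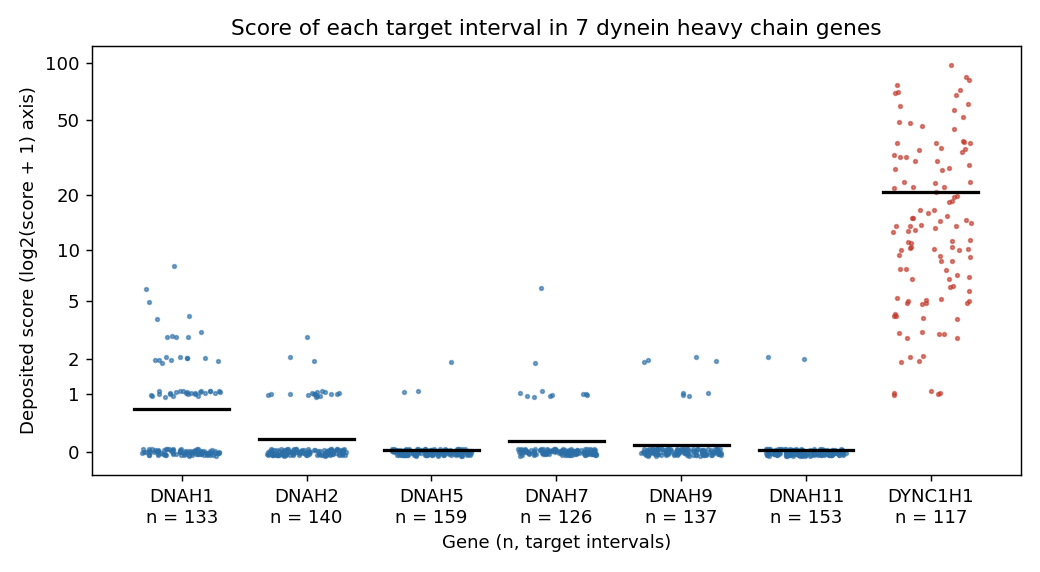
Score of each target interval (points, log2(score + 1) axis, with a small random offset) in the 7 genes, with the gene's mean as a black bar. The 117 intervals of DYNC1H1 lie between 1 and 97, and no ciliary interval lies above 8.

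Among the ciliary members, the outer-arm genes were the lowest. The order by arm was not examined in other heavy chains, of which DNAH6 had a mean of 0.00685, below every member. DNAH5, which codes for the gamma heavy chain of the outer arm, had 3 of 159 intervals above 0, with scores of 1, 1 and 2. DNAH11 had 2 of 153, both with a score of 2 (chr7:21603704-21603803 and chr7:21645944-21646043). DNAH9 had 8 of 137, namely 4 intervals at 1 and 4 at 2. Their means were 0.0252, 0.0261 and 0.0876, and the median was 0 in each.

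The inner-arm members ranged more widely. DNAH7 had 11 of 126 intervals above 0, with 9 at 1, 1 at 2 and 1 at 6 (chr2:196911975-196912074), and a mean of 0.135. In DNAH2, 19 of 140 intervals were above 0, all at 1 apart from 2 at 2 and 1 at 3, and the mean was 0.164. DNAH1 had 46 of 133 above 0 (34.6%), of which 26 scored 1 and 20 more, with a highest score of 8 (chr3:52396911-52397010) and a mean of 0.662. DNAH1 alone held 51.7% of the ciliary intervals above 0 and 59.5% of the ciliary summed score.

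In the order DNAH5, DNAH11, DNAH9, DNAH7, DNAH2, the means of neighbouring genes differed by less than the SD between intervals within either gene. DNAH1 lay above DNAH2 by more than the SD of DNAH2 (0.459) but by less than its own (1.26). Over the 6 ciliary genes, 759 intervals scored 0, 57 scored 1, 20 scored 2 and 12 scored more than 2.

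DYNC1H1 scores ran from 1 to 97, with a median of 13, quartiles of 6 and 30 and an SD between intervals of 20.8. Scores of 5 or more were found in 97 of its 117 intervals (82.9%), against 29.8% of the whole list and 4 of the 848 ciliary intervals, 3 of them in DNAH1. The score of 78 DYNC1H1 intervals (66.7%) exceeded 8, the highest ciliary score, and 20.2% of the whole list did. The ranges nevertheless overlapped, as 15 DYNC1H1 intervals scored between 1 and 3. The highest, with a score of 97, was chr14:102482093-102482192.

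The chromosomes did not give the same order as the genes. Chromosome 17, which holds DNAH2 and DNAH9, had a mean score of 10.0 over all its intervals, and chromosome 14, which holds DYNC1H1, had 4.82. The share above 0 was 62.9% on chromosome 17 and 51.6% on chromosome 14.

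The neighbourhoods differed as well. The 20 intervals before and the 20 after the DNAH1 window had mean scores of 11.7 and 30.2, with 19 and 20 of them above 0, around a gene with a mean of 0.662. Beside DYNC1H1 the means were 20.5 and 20.4, close to its own. Beside DNAH2 they were 5.7 and 4.45, with 14 and 17 of 20 above 0, and beside DNAH7 5.05 and 2.3, with 16 and 14 above 0. These 2 genes thus also lay below their neighbours. Beside DNAH9 the means were 0 and 2.55, and beside DNAH11 0.80 and 0.65. Beside DNAH5 they were 2.05 and 0.35, with the nearest intervals 513 and 200 kb away.

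Ciliary genes held unbroken runs of score 0, and DYNC1H1 could hold none, as each of its intervals scored above 0. Runs in the whole list were not counted. In DNAH11, the last 121 intervals by position all scored 0 (chr7:21646162-21939839, 294 kb). The run in DNAH5 was 66 intervals long (chr5:13844845-13944489), that in DNAH7 48 intervals (chr2:196741167-196864066) and that in DNAH9 47 (chr17:11539851-11651184). The longest were 20 intervals in DNAH2 (chr17:7697472-7708275) and 8 in DNAH1 (chr3:52366058-52380887).

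The windows were checked against the genes by length, since the gene annotation used here lies on another build (GRCh38). Its exon lengths were matched to the gaps between neighbouring targets, in order and at like distances, without using its coordinates. In all 7 genes the best match on the chromosome fell inside the window, with 484 of 524 internal exons matched (92.4%). The next best place on a chromosome matched at most 4. All 67 internal exons of DNAH9 were matched, 74 of 77 in DNAH5, 75 of 81 in DNAH11, 71 of 76 in DNAH1, 77 of 84 in DNAH2 and 58 of 63 in DNAH7. DYNC1H1 had the lowest share, 62 of 76 (81.6%).

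Only gaps of the exon's length or 1 nt more could be matched, and they divided by the length of the next intron. A gap was the exon plus 1 nt in 457 of 458 exons followed in the transcript by an intron over 100 nt. It was exactly the exon in all 26 followed by an intron of 100 nt or less. The 1 exception was exon 82 of DNAH2. The same split held on both strands. Among the 131 exons with a downstream intron over 100 nt in the minus-strand genes DNAH5 and DNAH7, 131 gaps had the extra base, and the only such exon with a short downstream intron had none. The length of the upstream intron did not divide the gaps in this way: 20 of 24 plus-strand exons after a short intron had the extra base. The extra base thus went with the length of the intron on the exon's 3′ side, on either strand.

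Interval widths showed the same base from the intron's side. They are not a separate finding, because only introns between matched exons were used. Of 65 member introns between matched exons and covered by a single interval, the 23 of 70 to 99 nt had an interval of the intron's own length, and the 42 of 102 to 201 nt had one that was 1 nt shorter.

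**Figure D2:**
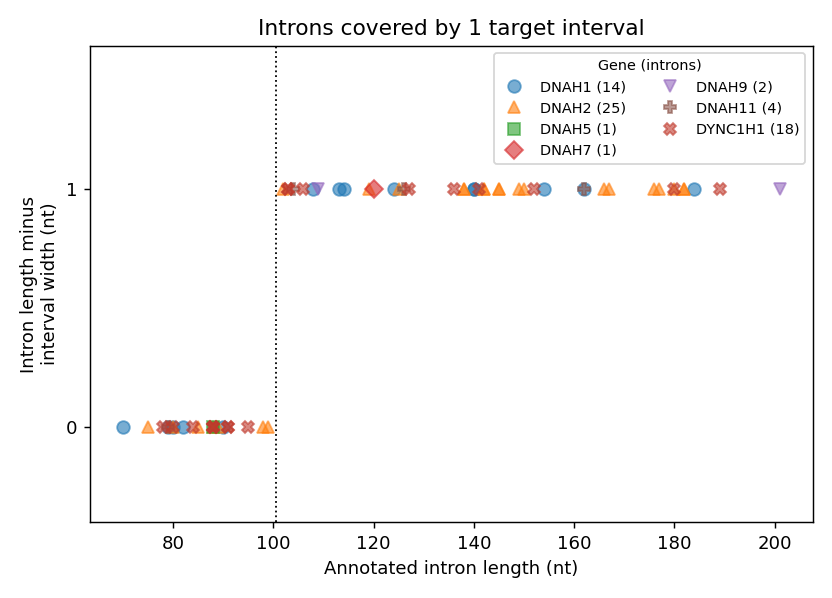
Annotated intron length (x axis, nt) against the difference between intron length and interval width (y axis, nt) for the 65 introns of the 7 genes assigned to 1 interval; the dotted line stands at the 100 nt limit. The 23 introns to its left differ by 0 and the 42 to its right by 1.

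DYNC1H1, DNAH2 and DNAH1 were compact genes with many short introns, and the other ciliary genes were not. Introns of 200 nt or less made up 39.0% of the 77 introns of DYNC1H1, 32.9% of 85 in DNAH2 and 22.1% of 77 in DNAH1. In DNAH11 they made up 7.32%, and in DNAH5, DNAH7 and DNAH9 between 1.28% and 1.56%. The median intron was 348 nt in DYNC1H1 and 345 nt in DNAH2, against 3546 nt in DNAH9. The windows of these 3 compact genes measured 85 to 117 kb and were 12.7% to 15.9% targeted, whereas the other windows measured 255 to 373 kb and were 3.70% to 6.20% targeted.

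Widths divided the genes in the same way. Exactly 100 nt, the stated length of a targeted intron end, was the width of 87.7% of the whole list. The share was 74.4% in DYNC1H1, 79.3% in DNAH2 and 88.0% in DNAH1, and it was between 97.4% and 98.5% in the other 4 genes. Over the ciliary genes it was 93.3% ± 7.98 (SD between genes, n = 6), and all 6 lay above DYNC1H1. The difference of 18.9 percentage points became 11.3 when widths of 90 to 110 nt were counted. DYNC1H1 had 15 narrower and 15 wider intervals, of which the narrowest was 20 nt (chr14:102504697-102504716, score 3) and the widest 199 nt (chr14:102478452-102478650, score 24). DNAH2, with 8 narrower and 21 wider intervals, had a mean score of 0.164.

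The medians of gaps of up to 1000 nt lay close together, all above the whole-list median of 148 nt. This median was 185 nt in DYNC1H1 and 176 ± 13.2 nt over the ciliary genes (SD, n = 6), and the difference of -9.08 nt was within the spread between ciliary genes. It was -2.08 nt for gaps between intervals of exactly 100 nt. The single genes ran from 161 nt in DNAH2 to 196 nt in DNAH5, and DYNC1H1 lay inside that range. Gaps of this size are not all exons, since the inner parts of introns are among them. DYNC1H1 had 97 such gaps and DNAH1 117, against 62 and 71 matched exons. Gaps that leave 1 after division by 3 made up 44.3% in DYNC1H1 and from 36.4% (DNAH2) to 52.1% (DNAH11) in the ciliary genes. This last share was not counted over the whole list. The share of gaps within 1000 nt was 83.6% in DYNC1H1 and ran from 56.8% in DNAH7 to 88.6% in DNAH1. Over the ciliary genes it was 69.3% ± 14.0 (SD, n = 6), and in the whole list 58.6%, near the shares of DNAH7, DNAH9 and DNAH11.

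Some intron ends had no target. Unmatched gaps equal to annotated lengths showed 6 such cases in DYNC1H1: 2 introns without a target at the 5′ end, 1 without one at the 3′ end, and 3 short introns left out whole. The 6 ciliary genes together had 13, namely 6 at the 5′ end, 2 at the 3′ end and 5 whole introns, and DNAH9 had none. DYNC1H1 has 77 of the 531 introns of the members. Such cases could be read only beside unmatched exons between matched ones, and DYNC1H1 had the lowest share of matched exons (81.6%). The counts therefore do not compare how often ends were left out. Intervals are numbered along the chromosome. In DYNC1H1 2 of 119 numbers were missing, and in the ciliary genes none. The share of missing numbers in the whole list was not counted. At missing number 10868 the gap of 2691 nt equals exon 34 (157 nt) plus intron 34 (2634 nt) less 100 nt, so the 5′ end of intron 34 had no target. The gap of 2445 nt at number 10903 equalled no such sum, and the other 5 cases in DYNC1H1 lay where the numbers were unbroken.

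Scores in DYNC1H1 were higher toward the 3′ end of the gene. Over 4 successive stretches of its intervals, 5′ to 3′, the mean score was 10.7 ± 8.17 (SD between 30 intervals), 18.8 ± 20.8 (n = 29), 19.8 ± 17.6 (n = 29) and 34.2 ± 26.1 (n = 29). The medians were 8.5, 11, 14 and 31. Of the 12 intervals that scored 50 or more, 8 were in the last stretch and none in the first. The means of the last and first stretch differed by 23.5, which is less than the SD in the last, and by 15.6 among intervals of exactly 100 nt. Spearman's rho between order and score was 0.36 over 117 intervals, which share neighbours and are not independent. Among the intervals of exactly 100 nt it was 0.34 (n = 87).

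In DNAH1 the 4 means along the gene were 0.47, 0.58, 0.70 and 0.91, with 9, 9, 13 and 15 intervals above 0 in stretches of 33 or 34 intervals. Each of these differences was smaller than the SD between intervals of a stretch, which was 0.961 or more. DNAH11 had its 2 scoring intervals in the first stretch, and DNAH5 its 3 in the middle ones.

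**Figure D3:**
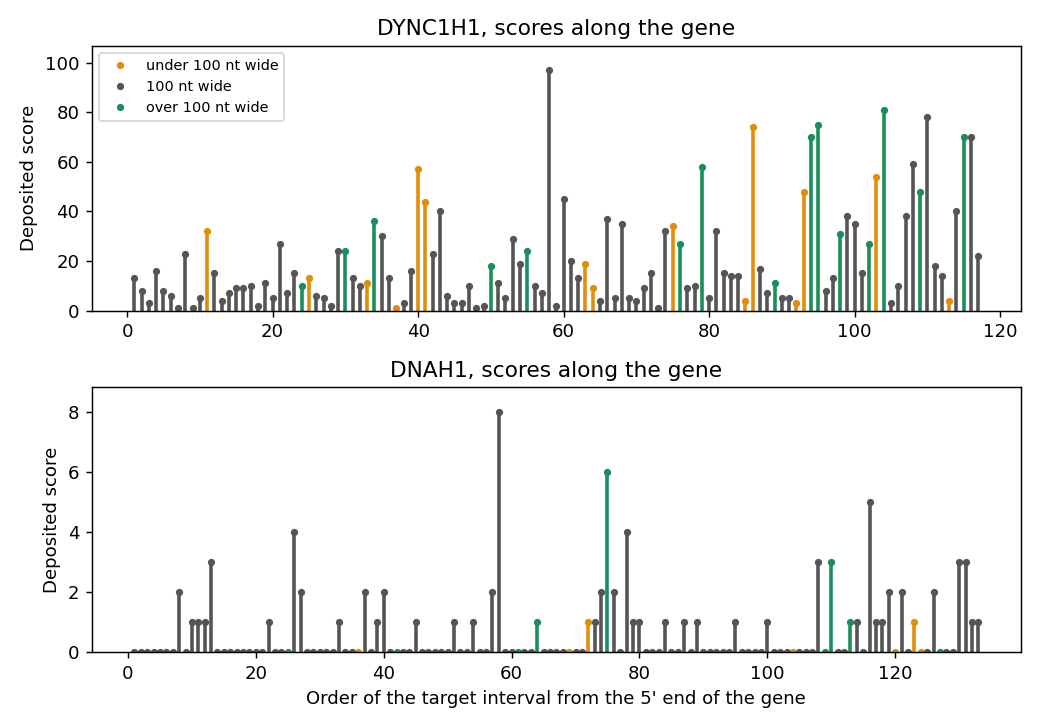
Score (y axis; the 2 scales differ) of each target interval in order from the 5′ end (x axis) in DYNC1H1 (top) and DNAH1 (bottom), coloured by interval width. The means of the 4 stretches run from 10.7 to 34.2 in DYNC1H1, and the highest score in DNAH1 is 8.

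The 3′ ends of DYNC1H1 introns scored higher than the 5′ ends in most introns. Both ends were listed and assigned for 36 introns. The 5′ ends scored 1 to 38, with a median of 6.5 and a mean of 10.0 ± 9.95 (SD, n = 36). The 3′ ends scored 2 to 97, with a median of 13.5 and a mean of 19.4 ± 18.9. The 3′ end was higher in 23 introns and the 5′ end in 13, and the mean difference of 9.39 was smaller than its SD between introns (20.3). The median difference was 5.0. A score of 3 or less was found at 11 of the 5′ ends and 2 of the 3′ ends.

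Single introns differed widely. In intron 35 the 5′ end scored 7 and the 3′ end 97, and in intron 36 the values were 2 and 45. In intron 65 they were 35 and 15. The 3′ ends were higher in both parts of the gene: 17.8 against 8.92 over 24 introns up to intron 38, and 22.5 against 12.2 over 12 introns from intron 40 on.

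**Figure D4:**
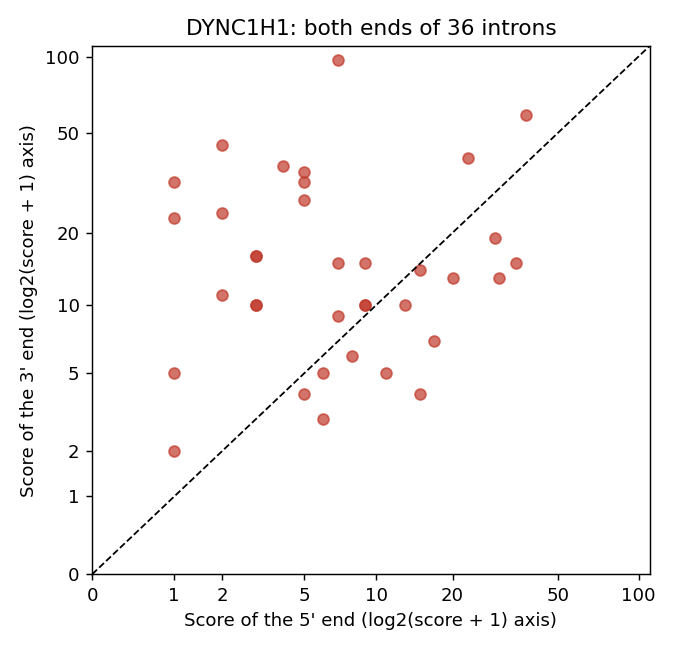
Score of the 5′ end (x axis) against that of the 3′ end (y axis) for the 36 DYNC1H1 introns with both ends listed (log2(score + 1) axes; overlapping points are darker); the dashed line marks equal scores. The 3′ end is higher in 23 introns, which lie above the line.

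Introns of DYNC1H1 covered whole by 1 interval had a higher mean than either kind of end. Of its 30 intervals of other than 100 nt, 18 lay between 2 matched exons and could be assigned to such an intron. Those 18 scored 1 to 81, with a median of 29.5 and a mean of 34.0 ± 23.3 (SD). Among them intron 68 (127 nt) had the highest score, 81, and intron 22 (88 nt) the lowest, 1. The mean of whole introns differed along the gene: 24.1 ± 16.7 (SD, n = 11) up to intron 38 and 49.6 ± 24.7 (n = 7) from intron 39 on. The 3′ ends in these parts had means of 17.8 ± 20.1 and 22.5 ± 16.4. The other 12 intervals, beside at least 1 unmatched exon, were not assigned and scored 3 to 75, with a median of 29. The ranges of whole introns and of single ends overlapped. By width alone, the mean was 40.7 for the 15 intervals over 100 nt, 27.1 for the 15 under 100 nt and 16.3 for the 87 of exactly 100 nt. The corresponding means in the whole list were 12.7, 9.39 and 6.27.

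In the ciliary genes few introns could show an order of ends, and the difference from DYNC1H1 was not tested. Of their 344 introns with both ends assigned, 288 scored 0 at both, the 3′ end was higher in 28 and the 5′ end in 24. The mean was 0.148 at 5′ ends and 0.157 at 3′ ends. Among other located genes with higher scores the order varied. The mean of 3′ less 5′ ends was 2.0 over 16 introns of HOOK3, a cargo adaptor of dynein. It was 3.0 over 4 introns of NDE1, 2.67 over 3 of PAFAH1B1 and 1.57 over 7 of NDEL1. The SD between introns was larger than the mean in each: 4.13 in HOOK3, 8.83 in NDE1, 5.13 in PAFAH1B1 and 5.06 in NDEL1. In DCTN4 the mean difference was 0 (SD 10.0) over 7 introns, with the 3′ end higher in 4 and the 5′ end in 3. CCDC39 could show no order, as its 13 introns scored 0 at both ends. Values below 0 were found in DNAAF5 (-4.25, SD 6.5, over 4 introns), CCDC114 (-1.6, SD 4.28, over 5) and CCDC151 (-3.0 over 1). These genes were named with their values known. In DNAH1, with 53 such introns, the means were 0.57 and 0.60, and the 14 introns assigned to 1 interval had a mean of 0.93. In DNAH2 25 introns were so assigned, with a mean of 0.16. A further 2 intervals of other than 100 nt in DNAH1 and 4 in DNAH2 were not assigned, and they scored 0 or 1.

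Other dynein genes were located in the list by the same length match. Of 34 genes on the lists for other heavy chains, cytoplasmic dynein 1 with dynactin and regulators, and axonemal assembly, 24 were located. All 7 other axonemal heavy chains were, with means between 0.00685 in DNAH6 (1 of 146 intervals above 0) and 0.973 in DNAH8 (41.8% above 0). DYNC2H1, the heavy chain that returns material from the tip of the cilium in intraflagellar transport, had a mean of 0.0479 over 167 intervals. With the 6 ciliary members, 14 heavy chains other than DYNC1H1 were thus located, and none had a mean above 0.973.

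The partners of DYNC1H1 lay mostly above that. Of the 12 genes on the cytoplasmic list, 6 were located, and 3 of these had a mean above the whole-list mean of 6.80. PAFAH1B1, which codes for the dynein regulator LIS1, was the highest with a mean of 13.9 over 15 intervals. Its median was only 7, and its highest score was 96. DCTN4, a dynactin subunit, had a mean of 8.57 with all 23 intervals above 0. The median of DCTN4 was 9, so PAFAH1B1 was not the highest by median. The lowest was DYNC1I1, an intermediate chain best known from neurons, with 0.219. Because DYNC1I2, DYNC1LI1, DYNC1LI2, DCTN1, DCTN2 and BICD2 matched too few exons, they were not analysed here.

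Of the 14 axonemal intermediate chain, docking and assembly genes 10 were located, with a median of the gene means of 0.327. The lowest was ARMC4, an outer-arm docking gene, with 0.0244. The highest was DNAAF5, a cytoplasmic factor for the assembly of dynein arms, with 19.9 over 21 intervals, all above 0. DNAAF5, PAFAH1B1 and DCTN4 were the located genes nearest to DYNC1H1 in mean score. Their means less that of DYNC1H1 were -0.93, -6.97 and -12.3, taken over the 115 intervals within its own match.

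**Figure D5:**
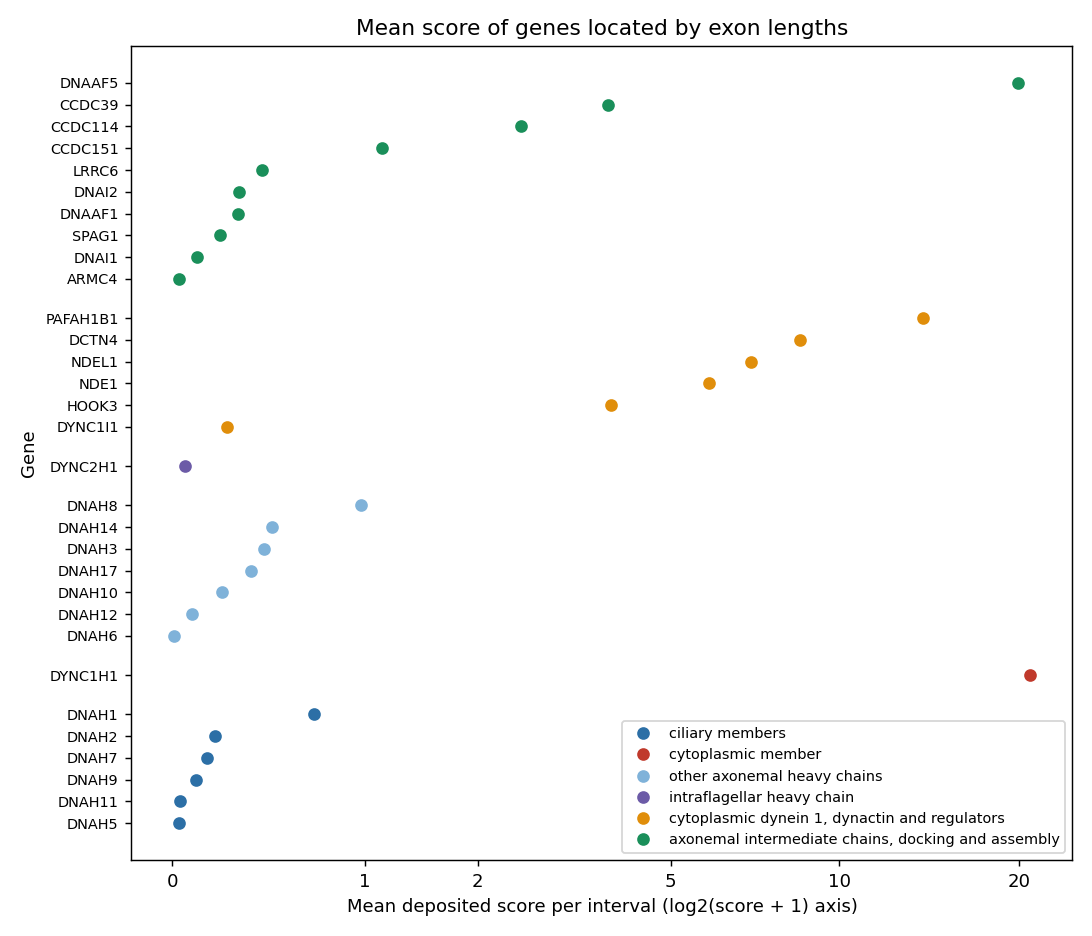
Mean score per interval (x axis, log2(score + 1) scale) of the 7 members and the 24 other genes located by exon lengths (y axis), coloured by list. DYNC1H1 and DNAAF5 lie near 20, and the 14 other heavy chains all lie below 1.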

How the data were processed

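The capture design covered the terminal 100 nt of GENCODE release 12 introns, less exonic sequence, less regions strongly transcribed in K562 and less repeats, which the array maker dropped, per the labels' protocols. The submitters' processing notes name hg19, Bowtie2, TopHat2 and bedtools without a role. The score deposited by the authors has no stated meaning or normalisation, so no count model was fitted. Coordinates are hg19 and 1-based.

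Members were the intervals fully inside 7 windows, and each gene weighed equally. Gaps lie between neighbouring intervals. For each gene the GENCODE release 29 basic transcript with most exons gave exon lengths, matched to gaps of that length or 1 nt more, with distances between matches within 2% or 20 nt. A gene was located with at least 6 matches, at least 50% of its internal exons and 2 times the next best place. On simulated lists of the 7 genes with 10% of intervals removed, every match lay at its true place, and shuffled lists gave at most 4 matches. The simulated targets were laid out by the exon-plus-1 rule, and the random intervals added to them lay on a regular grid. Their gaps were thus less varied than those of the real list, so the simulation says little about false matches. The text names every member, its extreme intervals, and the highest and lowest gene of each list. The members, windows and lists were chosen with earlier results of these data known, and the order of intron ends, the 4 stretches of each gene and the exon-plus-1 rule after seeing the scores. Python 3.11.15, numpy 2.4.6, pandas 2.3.3, Biopython 1.88 and matplotlib 3.10.9 were used.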

Additional observations from a re-analysis of the deposited data

How the results depend on the processing

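The mean score of the ciliary genes stayed below that of DYNC1H1 under each alternative run. The difference of -20.6 became -19.8 with windows trimmed by 5 kb, -13.0 with median scores, -16.1 with intervals of exactly 100 nt, -3.68 on the log2(score + 1) scale and -23.0 relative to the chromosome means; the log2 scale and the median measure another quantity. Without 1 ciliary gene at a time it ran from -20.7 to -20.6 (-20.69 to -20.56), the share above 0 differed by -93.7 to -87.1 percentage points, the share of full width by 17.9 to 21.7 and the median gap by -13.1 to -6.1 nt. With widths of 90 to 110 nt the difference in width share went from 18.9 to 11.3. The median gap difference went from -9.08 to -5.25 nt in trimmed windows, -5.33 with gaps up to 300 nt and -2.08 between intervals of exactly 100 nt. These and the other alternatives for shares and gaps moved by less than 1 SD between ciliary genes. Chosen after seeing the data, the difference between 3′ and 5′ ends in DYNC1H1 was 5.0 as a median and 7.09 without intron 35, and that between its last and first stretch of 4 was 15.6 with intervals of exactly 100 nt, against 23.5. No paired analysis was possible because a single list, without values for single replicates, serves all 3 libraries; no replicate could be left out either. The score has no stated depth.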

Other observations

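On chromosome 2, intervals of 96 to 99 nt are common, but DNAH7 had none among its 126. DNAH1, DNAH5, DNAH9 and DNAH11, on other chromosomes, had none either, while DNAH2 had 2 and DYNC1H1 had 1. On chromosome 2 such intervals made up 17.3% of the 14530 that scored 1 or more and 1.78% of the 15529 that scored 0. On chromosome 1 the shares were 15.9% and 4.20%. Of the DNAH7 intervals, 115 scored 0.

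CCDC39, a gene of the ruler that sets the axonemal repeat, had a mean score of 3.79 and a median of 0. Only 5 of its 34 intervals (14.7%) scored above 0, with a highest score of 37. Its 13 introns with both ends assigned scored 0 at both. CCDC39 was singled out after its values were seen.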
